A study of Homo sapiens with 8 samples.

Results

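The clustered protocadherins are cell-surface adhesion proteins encoded by 3 tandem arrays, alpha, beta and gamma, on human chromosome 5. All genes of the counts table whose GENCODE symbol is PCDHA, PCDHB, PCDHGA or PCDHGB followed by a number, PCDHAC1, PCDHAC2, or PCDHGC3 to PCDHGC5 were taken. This gave 54 of 57500 genes: 16 in the alpha cluster (with the pseudogene PCDHA14), 16 in the beta cluster and 22 in the gamma cluster. In GRCh38 they lie on the plus strand of chromosome 5 between 140786136 and 141512977. The RNAseq comparison had 4 DZNep libraries, from HEK293T cells given 100 µM of the compound over 48 h, and 4 vehicle-treated libraries (Control). HEK293T is a human embryonic kidney line expressing SV40 large T, and the labels give no further genetic change in either group. DZNep, short for 3-deazaneplanocin A, resembles adenosine and blocks AHCY, which clears S-adenosylhomocysteine, so that methylation of histones and other substrates is lowered. The comparison asks how clustered protocadherin transcripts differed between DZNep-treated and Control cells, cluster by cluster.

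Each alpha and gamma gene has its own first, variable exon with its own promoter, which is spliced to constant exons shared by the cluster. Beta genes are mostly single-exon genes without constant exons. The variable exon encodes the extracellular cadherin repeats and the transmembrane part, and the isoforms bind like isoforms on the facing cell. In neurons, a single cell is known to express a small, largely random set of these genes, which gives it a surface identity used in self-avoidance of dendrites and axons. The C-type genes (PCDHAC1, PCDHAC2, PCDHGC3, PCDHGC4 and PCDHGC5) lie at the ends of their clusters and are less random in their use. Most variable promoters hold a conserved element with the letters CGCT, at which CTCF binds together with cohesin, and unused promoters are known to carry DNA and histone methylation.

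The promoter elements below are shown because most member promoters searched hold the element of their cluster, in genes that rose and in genes that did not. Promoter sequences came from RefSeq (GRCh38.p14), whose table held 47 of the 54 members, and the 250 bases before each annotated start were searched. The letters searched were chosen after the member sequences were read, on both strands. All sequences are from the plus strand, 5′ to 3′, with the match in capitals and up to 20 bases on each side in lower case. In the alpha cluster, GATGTCGCT was found in 9 of 13 promoters and in 0.106% of the 27305 genes of the promoter table. PCDHA1 and PCDHA10 are shown as the alpha genes with the most reads in DZNep-treated cells.
PCDHA1, chr5:140786077-140786125: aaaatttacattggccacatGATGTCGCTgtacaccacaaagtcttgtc
PCDHA10, chr5:140855832-140855880: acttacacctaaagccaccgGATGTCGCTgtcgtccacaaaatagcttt

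In the beta cluster, GGTGGCGCT was found in 12 of 14 promoters and in 0.516% of all promoters of the table. The 5 beta genes that rose with DZNep all held it, and their elements are shown for that reason.
PCDHB2, chr5:141094535-141094583: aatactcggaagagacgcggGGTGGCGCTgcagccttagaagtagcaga
PCDHB13, chr5:141213856-141213904: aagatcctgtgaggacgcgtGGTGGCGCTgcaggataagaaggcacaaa
PCDHB14, chr5:141223254-141223302: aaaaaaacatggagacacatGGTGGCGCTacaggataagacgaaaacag
PCDHB15, chr5:141245305-141245353: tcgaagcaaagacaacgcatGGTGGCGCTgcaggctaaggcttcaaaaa
PCDHB16, chr5:141182301-141182349: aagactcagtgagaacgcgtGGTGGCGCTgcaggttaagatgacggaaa

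In the gamma cluster, GNGNCGCTG was found in 18 of 20 promoters and in 9.78% of all promoters. The beta element followed by G also matches this looser pattern, and 11 of 14 beta promoters did so. The gamma elements shown belong to 6 genes that rose (PCDHGA1, PCDHGB1, PCDHGA6, PCDHGA7, PCDHGA10 and PCDHGB4) and to 4 tested genes that did not pass the thresholds (PCDHGB5, PCDHGA11, PCDHGC3 and PCDHGC4).
PCDHGA1, chr5:141330395-141330443: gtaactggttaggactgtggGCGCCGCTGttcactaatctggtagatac
PCDHGB1, chr5:141350017-141350065: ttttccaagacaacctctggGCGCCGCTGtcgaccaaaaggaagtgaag
PCDHGA6, chr5:141373827-141373875: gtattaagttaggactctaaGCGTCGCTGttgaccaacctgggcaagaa
PCDHGA7, chr5:141382641-141382689: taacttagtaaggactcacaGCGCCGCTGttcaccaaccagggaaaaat
PCDHGA10, chr5:141412923-141412971: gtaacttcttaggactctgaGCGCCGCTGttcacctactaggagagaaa
PCDHGB4, chr5:141387609-141387657: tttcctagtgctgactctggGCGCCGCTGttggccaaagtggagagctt
PCDHGB5, chr5:141397855-141397903: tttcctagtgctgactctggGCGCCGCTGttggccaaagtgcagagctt
PCDHGA11, chr5:141420964-141421012: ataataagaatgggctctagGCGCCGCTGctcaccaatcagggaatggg
PCDHGC3, chr5:141475872-141475920: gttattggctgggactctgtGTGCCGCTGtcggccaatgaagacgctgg
PCDHGC4, chr5:141484944-141484992: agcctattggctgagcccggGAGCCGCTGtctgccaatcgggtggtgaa

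The letters CGCTG alone were present in 40 of 47 member promoters and in 44.8% of all promoters. Matches in the gamma cluster began 43 to 203 bases before the annotated start, with a median of 64 bases. The pattern of its own cluster was found for each of the 13 genes that rose with DZNep and have an entry, and in 4 of the 5 tested genes that were not called, PCDHGB7 being the gene without a match. The windows shown for PCDHGB4 and PCDHGB5 had 48 of 49 bases in common. PCDHGB4 rose (log2 fold change 1.56 ± 0.41 SE), and PCDHGB5 was not called (0.89 ± 0.53 SE). With the replicate number as a block PCDHGB5 was called as well (1.04), and a difference between these genes was not tested. Both genes were chosen after their values were seen. A match is a description of letters and says nothing on binding in these cells.

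Library totals ranged from 25043058 to 44902779 counts, and the 54 genes together took 396 to 3132 reads per library. The family is therefore near the lower limit of detection for most members, and 3 reads in a library of this depth are the floor a count of 0 allows. The 9 HEK293T markers were all detected, with summed normalized counts of 32942 to 55038 in Control and 42788 to 51962 in DZNep libraries. Leukocyte, hepatocyte, endothelial and fibroblast markers summed to 97.6 to 183, 1.54 to 8.59, 149.6 to 183 and 3283 to 6872 in Control libraries and to 138 to 218, 1.61 to 21.4, 167 to 321 and 2479 to 6655 in DZNep libraries. No marker of these lists was at 0 in all libraries. Among them, the endothelial genes CDH5 (log2 fold change 4.58 ± 0.78 SE) and VWF (5.19 ± 0.36 SE), out of 3, passed the test as higher. Of all genes tested, 10.6% were higher. In Control replicates 1 to 4 CDH5 had 2, 0, 0 and 0 reads and VWF 3, 2, 3 and 2. Both genes could therefore pass the filter on low counts only through their DZNep values. The T cell gene CD3E, 1 of the 4 leukocyte markers, did not pass the filter and had 0 reads in each Control library and 9, 21, 18 and 36 reads in DZNep replicates 1 to 4, and DESeq2 called 1 leukocyte marker higher. The part of other cell types in the protocadherin values was not tested. Mitochondrial transcripts made up 3.02% and 3.16% of counts in Control replicates 2 and 3 but 7.76% and 13.7% in Control replicates 1 and 4, and 4.25% to 10.1% in the DZNep libraries. In bulk RNA, more cells with a transcript and more transcript per cell cannot be told apart.

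With DZNep, 5 beta genes and 10 gamma genes rose, among them PCDHB14, PCDHGB1 and PCDHGC5, and 0 members were called lower, while 10.6% of all genes tested were higher and 13.5% lower. The filter on low counts bears on these calls, since PCDHGB1 and PCDHGC5 reached its minimum in 0 Control libraries and could be tested only through their DZNep values. The alpha genes were at trace levels, and the gamma genes with the most reads, PCDHGC3 and PCDHGA11, did not pass the test. The normalized counts given here are reads divided by the library's size factor. Summed over the beta cluster they were 72.5, 90.2, 78.8 and 60.2 in Control replicates 1 to 4 and 219, 269, 274 and 193 in DZNep replicates 1 to 4. The groups did not overlap, and the mean went from 75.4 ± 12.5 to 239 ± 39.1 (SD, n = 4 each), a ratio of 3.17. The same-numbered libraries, which vary together across genes, gave ratios of 3.02, 2.98, 3.47 and 3.22.

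The alpha sum was 17.0, 38.4, 24.2 and 15.04 normalized counts in the Control libraries and 47.2, 64.4, 70.8 and 33.7 in the DZNep libraries. DZNep replicate 4 lay below Control replicate 2, so the groups overlapped, while each DZNep library was above the Control library of its number. The mean was 23.6 ± 10.6 in Control and 54.04 ± 16.8 with DZNep (SD, n = 4 each), a ratio of 2.29.

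Over the gamma cluster the sum was 607, 2279, 1401 and 350.2 normalized counts in Control and 1808, 2189, 2068 and 991 with DZNep. Control varied more than 6-fold among its own libraries, with replicates 2 and 3 high and 1 and 4 low, and the groups overlapped. The ratio of means was 1.52, with 2.98, 0.960, 1.48 and 2.83 in the 4 numbered pairs. Without PCDHGC3 and PCDHGA11, which hold most of the gamma reads, the sum was 156, 344, 257 and 109.6 in Control and 517, 644, 634 and 415 with DZNep, without overlap and with a ratio of means of 2.55. These sums are descriptions of the clusters and were not tested.

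**Figure D1:**
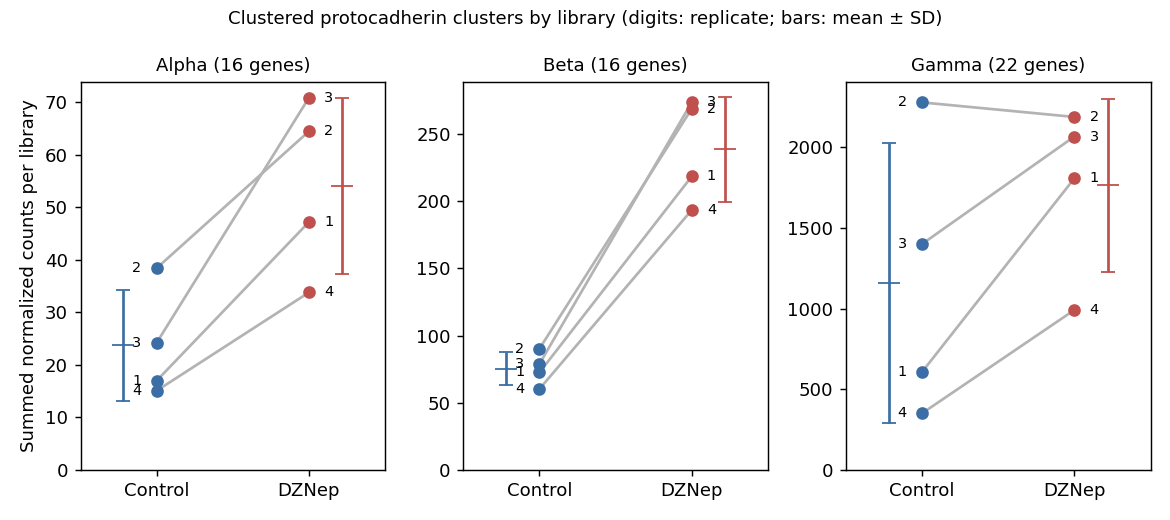
Summed normalized counts of the alpha, beta and gamma clusters in each library (y axis, normalized counts, starting at 0) for Control and DZNep (x axis), with grey lines joining libraries of the same replicate number and bars for mean ± SD of 4 libraries. The beta sums do not overlap (60.2 to 90.2 against 193 to 274), while the gamma sums do (350.2 to 2279 against 991 to 2189).

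Of the 54 genes, 51 had at least 1 read. PCDHA12, PCDHA14 and PCDHB1 had 0 reads in all 8 libraries. In the GENCODE annotation used here, all 2298 exon bases of PCDHA14 overlap another gene on the same strand. Its 0 therefore says nothing on its expression, since no read could be assigned to it alone. The mean normalized count was higher with DZNep for 46 genes and lower for 5, against 52.5% and 47.5% of the 40246 genes with at least 1 read. All 4 numbered pairs were higher for 30 genes (4 alpha, 10 beta and 16 gamma), against 21.1% of the same genes. For 21 genes (1 alpha, 7 beta and 13 gamma) every DZNep library was above every Control library, against 12.5% of them. Of these, 13 were among the genes tested, where the background is 19.5%.

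A total of 20 members (5 beta and 15 gamma) passed the filter on low counts, which asked for 0.247 CPM (counts scaled to library size) in 4 libraries, and 34 did not. Since 4 DZNep libraries suffice, a gene that is low in Control could pass only by being higher with DZNep. PCDHB16, PCDHGB1, PCDHGA12 and PCDHGC5 reached the minimum in 0 Control libraries, and only 4 tested members (1 of them called) reached it in all 4. The 20 genes that passed are thus not a fair sample of the family. In edgeR's quasi-likelihood test, with Benjamini-Hochberg adjustment over 19171 genes, an adjusted p under 0.05 and a log2 fold change over 1, 15 members (5 beta and 10 gamma) were higher and 0 were lower. Of all genes tested, 10.6% were higher and 13.5% lower. With the replicate number as a block, 17 members were higher, PCDHGB5 and PCDHGC4 being added, against 11.7% of all genes.

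The filter hides the alpha cluster, so the tests were also run on every gene with a read. Without the filter, edgeR called 20 of 51 members higher (1 alpha, 6 beta and 13 gamma) against 7.37% of 40246 genes. DESeq2 called 22 of the 46 members to which it gave an adjusted p (1 alpha, 7 beta and 14 gamma) against 9.93% of 29303 genes. Both called 0 members lower. At an unadjusted p under 0.05, edgeR with the filter also gave 15 members higher and 0 lower. The median log2 fold change over all genes tested was -0.03 in the fit with the filter.

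**Figure D2:**
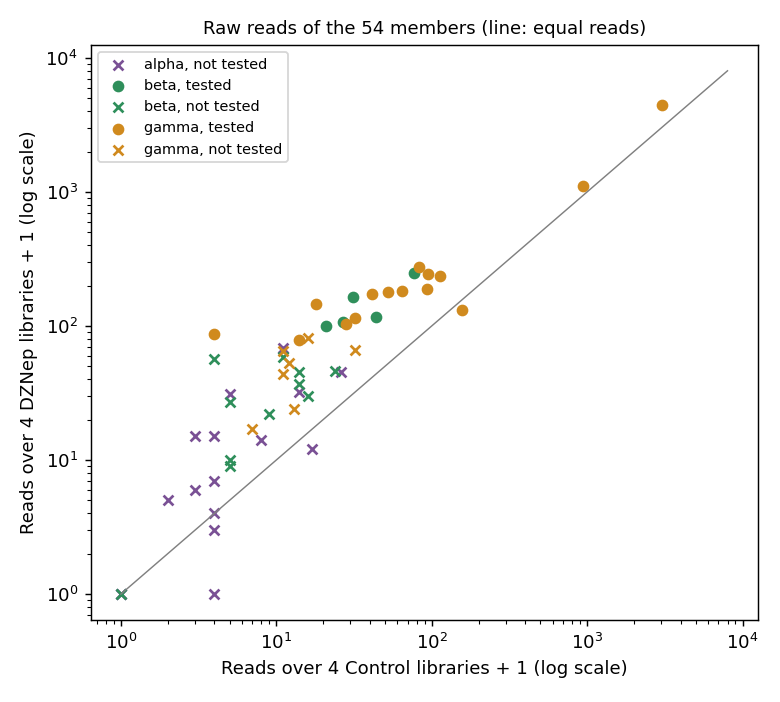
Raw reads of the 54 members summed over the 4 Control libraries (x axis, reads + 1, log scale) and over the 4 DZNep libraries (y axis, reads + 1, log scale), coloured by cluster, with circles for the 20 tested and crosses for the 34 untested genes. Most points lie above the line of equal reads, and PCDHGC3 (3016 and 4415 reads) and PCDHGA11 (946 and 1099 reads) lie far from the rest and near that line.

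The alpha cluster was read at trace level. Its 16 genes took 95 reads over the Control libraries and 244 over the DZNep libraries, and 8 of them had under 10 reads in each group. PCDHA1 (ENSG00000204970), the first gene of the array, had 0, 3.57, 3.58 and 2.15 normalized counts in Control replicates 1 to 4 and 7.26, 22.6, 21.6 and 6.75 in DZNep replicates 1 to 4. The groups did not overlap, and DZNep replicates 2 and 3 were the highest. It was the single alpha gene called without the filter (log2 fold change 2.47 ± 0.69 SE, edgeR adjusted p = 0.0122; DESeq2 adjusted p = 0.00667), and its 10 and 67 reads gave a depth-adjusted ratio of 5.82 (exact 95% counting interval 2.98 to 12.7). Intervals of this kind cover counting error only.

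PCDHA10 (ENSG00000250120) had 3.08, 16.1, 3.58 and 1.07 normalized counts in Control and 4.53, 11.3, 15.5 and 7.87 with DZNep. Control replicate 2 was the highest of all 8 libraries, the groups overlapped, and edgeR without the filter gave an adjusted p of 0.512. PCDHA3 (ENSG00000255408) had 4.62, 3.57, 1.79 and 4.30 normalized counts in Control and 7.26, 11.3, 4.32 and 4.50 with DZNep. Its lowest DZNep libraries lay within the Control range.

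The alpha C-type genes, which have promoters richer in CpG (18 CpG in the 250 bases before PCDHAC1 and 13 before PCDHAC2, against a median of 5 over the 13 alpha promoters), were read at trace level too. PCDHAC1 (ENSG00000248383) had 1 read over the Control libraries and 4 over the DZNep libraries. PCDHAC2 (ENSG00000243232) had 1.54, 2.68, 1.79 and 1.07 normalized counts in Control and 2.72, 0, 5.18 and 4.50 with DZNep, and the groups overlapped. PCDHA7, chosen after its values were seen, with 3 reads in Control and 0 with DZNep, was the only alpha gene read in 1 group alone. Its ratio is not distinguishable from 1 at this depth, with an upper bound of 2.10.

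In the beta cluster PCDHB2, PCDHB13, PCDHB14, PCDHB15 and PCDHB16 rose, and the other 11 of its 16 genes did not pass the filter, where 10.6% of all genes tested were higher. These 5 reached the filter minimum in 3, 1, 1, 2 and 0 Control libraries and in all 4 DZNep libraries, so their count is no measure of the cluster. PCDHB14 (ENSG00000120327) rose the most of them. It had 3.08, 7.14, 11.6 and 7.52 normalized counts in Control replicates 1 to 4 and 33.6, 45.1, 43.2 and 22.5 in DZNep replicates 1 to 4, with no overlap. Its log2 fold change was 2.21 ± 0.41 SE (edgeR adjusted p = 0.00177). PCDHB16 (ENSG00000272674) had 4.62, 6.25, 3.58 and 6.45 normalized counts in Control and 31.7, 19.3, 19.9 and 19.1 with DZNep. The groups lay far apart, with DZNep replicate 1 standing above the other three, and the log2 fold change was 2.05 ± 0.37 SE (edgeR adjusted p = 0.00152).

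PCDHB2 (ENSG00000112852) was the beta gene with the highest level, at 4.91 normalized counts per kb of exon in Control and 13.7 with DZNep. In the libraries it had 26.2, 32.1, 12.5 and 9.67 normalized counts in Control and 44.4, 63.6, 64.8 and 51.7 with DZNep. No library overlapped, although the numbered pairs differed in size, with ratios of 1.70 and 1.98 in pairs 1 and 2 and of 5.17 and 5.35 in pairs 3 and 4 (log2 fold change 1.46 ± 0.39 SE, edgeR adjusted p = 0.0125). PCDHB13 (ENSG00000187372) had 9.25, 9.82, 4.48 and 4.30 normalized counts in Control and 16.3, 32.2, 25.9 and 20.2 with DZNep, again without overlap (log2 fold change 1.75 ± 0.40 SE, edgeR adjusted p = 0.00617).

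PCDHB15 (ENSG00000113248), the last gene of the array, had 12.3, 7.14, 17.9 and 7.52 normalized counts in Control and 27.2, 22.6, 37.1 and 15.7 with DZNep. Here DZNep replicate 4 lay below Control replicate 3. Its log2 fold change of 1.16 ± 0.41 SE had an edgeR adjusted p of 0.0442, and the call was lost without the filter (adjusted p = 0.076). It was also lost in edgeR fits without Control replicate 1, 2 or 4 (adjusted p = 0.081, 0.0986 and 0.096) or without DZNep replicate 1, 2 or 3 (0.0972, 0.0692 and 0.141).

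The other 11 beta genes were not tested. Some were chosen here after their values were seen. PCDHB8 (ENSG00000120322) had 3 reads in Control and 56 with DZNep, a depth-adjusted ratio of 16.2 (exact 95% counting interval 5.27 to 81.0). Its normalized counts were 1.54, 0.893, 0 and 1.07 in Control and 14.5, 17.7, 12.1 and 4.50 with DZNep, and each DZNep library was higher than all Control libraries. PCDHB12 (ENSG00000120328) went from 10 to 58 reads, a ratio of 5.04 (2.55 to 11.1), also without overlap. Without the filter both were called higher by edgeR (PCDHB8 adjusted p = 0.00134, PCDHB12 adjusted p = 0.0149). PCDHB1, which lies before the other beta genes, had 0 reads in each library. Neither PCDHB1 nor PCDHB8, with the reads given above, has a match to the beta element.

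Exons of PCDHB8, PCDHB9, PCDHB14, PCDHB15 and PCDHB16 overlap exons of another gene outside the family on the same strand in the GENCODE annotation. Exons of 19 members, among them PCDHA1, PCDHB2, PCDHB16 and PCDHGB1, overlap exons of a gene on the opposite strand. How the counting treated strand is not given in the sources used here, so how reads of such a pair were assigned or left out is not known. The beta genes are close paralogs, so reads that matched several of them equally were not among the unique reads counted, and their levels are uncertain to that degree.

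In the gamma cluster 15 of 22 genes passed, under the same limit of the filter. Of these, 10 rose and 5 were not called, where 10.6% of all genes tested were higher. The 10 were PCDHGA1, PCDHGA6, PCDHGA7, PCDHGA10, PCDHGA12, PCDHGB1, PCDHGB2, PCDHGB4, PCDHGB6 and PCDHGC5, with log2 fold changes from 1.18 to 4.40. They lie along the whole array, from its first gene PCDHGA1 to its last gene PCDHGC5. Their Control means lay between 0.671 and 24.0 normalized counts. The genes not called were PCDHGB5, PCDHGB7, PCDHGA11, PCDHGC3 and PCDHGC4, with Control means of 27.2, 38.4, 227, 716 and 21.7. A gene with a low Control mean could be tested only by being higher with DZNep, so the filter bears on this difference in Control means.

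PCDHGC5 (ENSG00000240764), a C-type gene, had 0, 0.893, 1.79 and 0 normalized counts in Control replicates 1 to 4 and 15.4, 29.0, 18.1 and 13.5 in DZNep replicates 1 to 4. The groups lay far apart, from 3 reads in all Control libraries to 86 in all DZNep libraries. The depth-adjusted ratio was 24.9 (exact 95% counting interval 8.24 to 123), and the fitted log2 fold change of 4.40 ± 0.64 SE (edgeR adjusted p = 0.000448) depends on the prior count, since Control is near 0.

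PCDHGB1 (ENSG00000254221) had 3.08, 6.25, 6.27 and 1.07 normalized counts in Control and 36.3, 28.2, 38.9 and 27.0 with DZNep. Every DZNep library was over 4 times the highest Control library (log2 fold change 2.85 ± 0.44 SE, edgeR adjusted p = 0.000672). PCDHGA12 (ENSG00000253159), the last A-type gene, had 1.54, 3.57, 5.37 and 2.15 normalized counts in Control and 19.95, 14.5, 17.3 and 20.2 with DZNep. The groups did not overlap (log2 fold change 2.36 ± 0.41 SE, edgeR adjusted p = 0.00128).

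The smaller changes among the called gamma genes were those of PCDHGA1, PCDHGA6 and PCDHGA10. PCDHGA1 (ENSG00000204956) had 21.6, 33.0, 17.9 and 23.6 normalized counts in Control and 43.5, 50.7, 59.6 and 69.7 with DZNep. It was the called member with the highest Control mean, 24.0 ± 6.44 (SD, n = 4), and its log2 fold change was 1.18 ± 0.29 SE (edgeR adjusted p = 0.00831). PCDHGA6 (ENSG00000253731) had 12.3, 25.9, 16.1 and 8.59 normalized counts in Control and 40.8, 49.1, 38.9 and 34.9 with DZNep (log2 fold change 1.33 ± 0.36 SE, edgeR adjusted p = 0.0133). PCDHGA10 (ENSG00000253846) had 17.0, 15.2, 11.6 and 10.7 normalized counts in Control and 32.6, 44.3, 44.9 and 40.5 with DZNep (log2 fold change 1.55 ± 0.29 SE, edgeR adjusted p = 0.00187). In these 3 genes every DZNep library was above every Control library.

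PCDHGA7 (ENSG00000253537), the third of the gamma genes by average log2 CPM, overlapped between groups. It had 7.71, 37.5, 21.5 and 11.8 normalized counts in Control and 59.9, 75.7, 72.6 and 34.9 with DZNep, where DZNep replicate 4 lay just under Control replicate 2. Its log2 fold change was 1.56 ± 0.45 SE (edgeR adjusted p = 0.0195), and each numbered pair was higher, by 7.77, 2.02, 3.37 and 2.95 times. The call was lost without DZNep replicate 2 (edgeR adjusted p = 0.0545) or DZNep replicate 3 (0.0562).

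**Figure D3:**
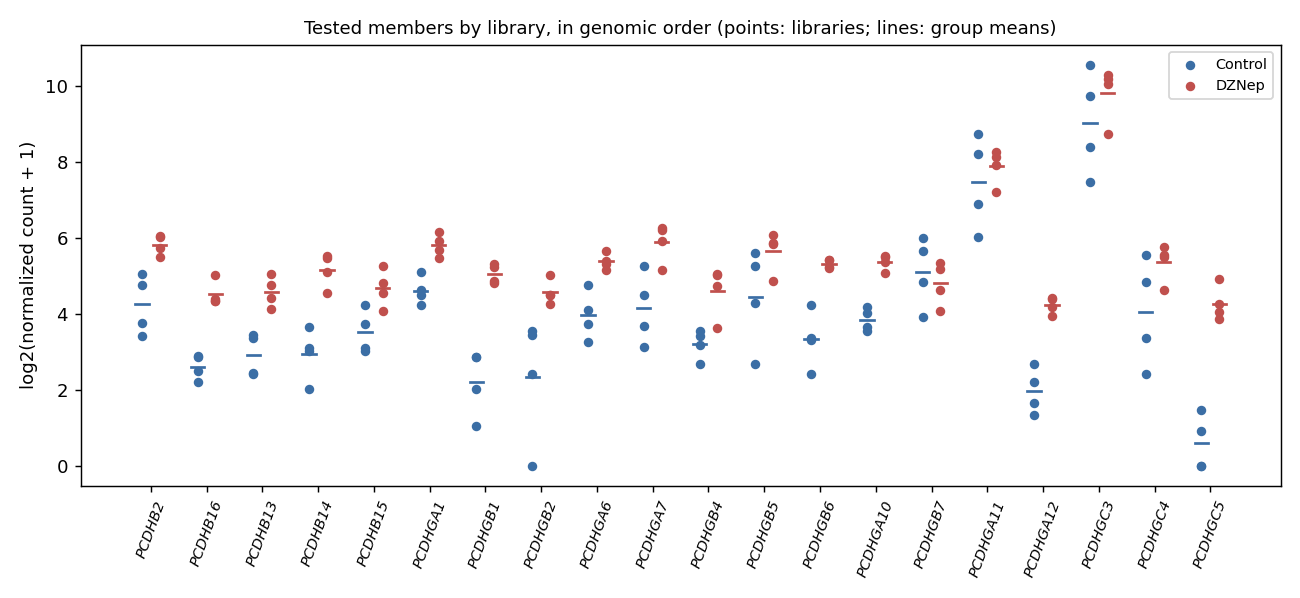
Normalized counts of the 20 tested members in each library (y axis, log2 of the normalized count + 1), in genomic order (x axis, gene symbols), with points for the 4 Control and 4 DZNep libraries and short lines for group means. PCDHGC3 and PCDHGA11 stand above all others in both groups, and PCDHGC5 rises from 0 to 1.79 normalized counts in Control to 13.5 to 29.0 with DZNep.

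PCDHGC3 (ENSG00000240184) was the main clustered protocadherin of these cells. It held 7431 of the 14519 member reads over all libraries, 51.2%, and PCDHGA11 held 2045 reads, 14.1%. Per kb of exon outside other genes of the same strand, PCDHGC3 had 220.2 normalized counts in Control and PCDHGA11 had 62.4, while the called members ranged from 0.236 to 6.02 in Control and from 4.68 to 18.6 with DZNep. The constant exons, which the gamma genes share, are not in these lengths.

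PCDHGC3 had 333, 1507, 849 and 176 normalized counts in Control and 1050.2, 1240.3, 1154 and 429 with DZNep. Control spread over more than 8-fold, replicates 2 and 3 being high and 1 and 4 low, and covered the range of the DZNep libraries. The log2 fold change was 0.41 ± 0.57 SE (edgeR adjusted p = 0.602). It ranged from 0.08 without Control replicate 4 to 1.06 without Control replicate 2 (edgeR adjusted p = 0.915 and 0.12), and no fit that left out a library called it. In the fit with the replicate block the log2 fold change was 0.71, below the threshold of 1, with an adjusted p of 0.0164.

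PCDHGA11 (ENSG00000253873) had 119, 429, 295 and 64.5 normalized counts in Control and 241, 304, 279.8 and 147 with DZNep, in the same order of libraries as PCDHGC3 in Control. The log2 fold change was 0.07 ± 0.49 SE (edgeR adjusted p = 0.923; with the replicate block 0.31, adjusted p = 0.279). Its share of gamma reads was 19.5%, 18.8%, 21.0% and 18.4% in Control and 13.3%, 13.9%, 13.5% and 14.9% with DZNep, so the shares did not overlap while its level did. The share of PCDHGC3 was 58.0% ± 6.88 in Control and 53.4% ± 6.86 with DZNep (SD, n = 4 each) and overlapped.

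PCDHGC4 (ENSG00000242419) had 9.25, 45.5, 27.8 and 4.30 normalized counts in Control and 44.4, 45.9, 53.5 and 23.6 with DZNep. Control replicates 2 and 3 lay within the DZNep range and replicates 1 and 4 below it. The log2 fold change was 0.89 ± 0.58 SE (edgeR adjusted p = 0.252), from 0.53 to 1.52 when 1 library was left out, the highest without Control replicate 2 (edgeR adjusted p = 0.0528). In the full set with the replicate block it was 1.11 (edgeR adjusted p = 0.0241) and passed. PCDHGB5 (ENSG00000276547), chosen after its values were seen, had like values, with a log2 fold change of 0.89 ± 0.53 SE (adjusted p = 0.207) and, with the block, 1.04 (adjusted p = 0.0135).

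PCDHGB7 (ENSG00000254122), also chosen after its values were seen, was the only tested member with a lower value. It had 27.7, 62.5, 49.3 and 14.0 normalized counts in Control and 23.6, 39.5, 35.4 and 15.7 with DZNep, and the ranges overlapped. Its log2 fold change was -0.46 ± 0.46 SE (edgeR adjusted p = 0.467; with the replicate block -0.38, adjusted p = 0.287).

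All 5 uncalled gamma genes had Control replicates 2 and 3 above replicates 1 and 4. This order was seen in 11 of the 20 tested members, against 35.2% of all genes tested. Mitochondrial shares moved with it (lower in Control replicates 2 and 3), and their part in the protocadherin values was not tested.

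**Figure D4:**
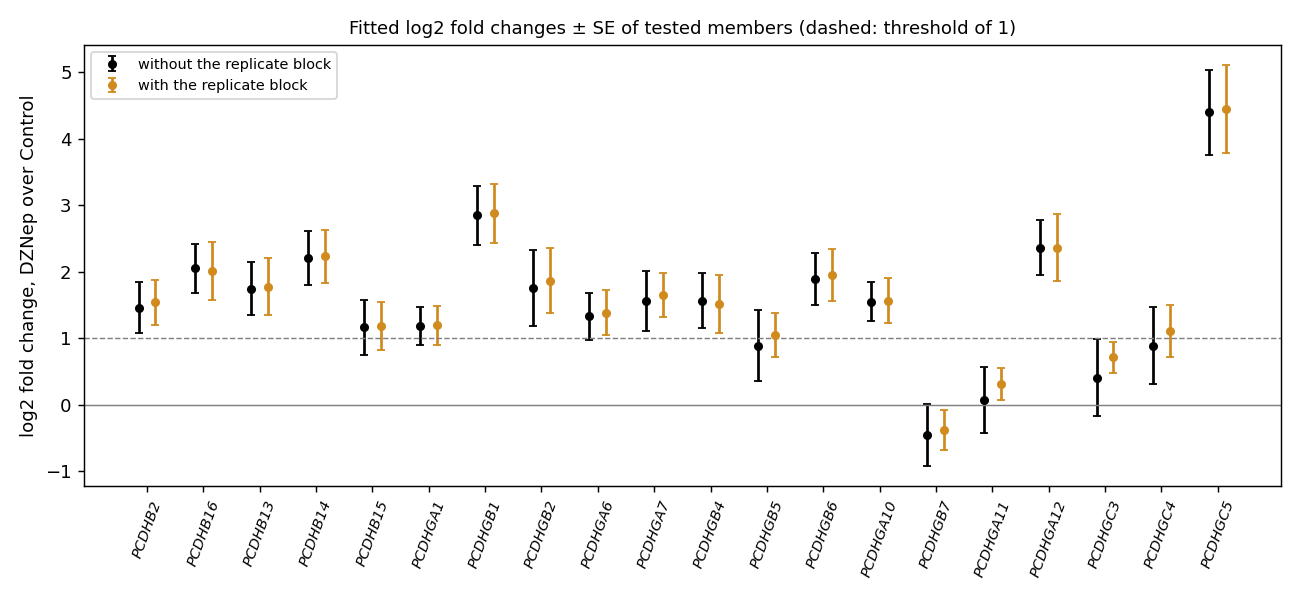
Fitted log2 fold changes of the 20 tested members, DZNep over Control (y axis), with standard errors, in genomic order (x axis, gene symbols), from the fits without (black) and with (orange) the replicate block, the dashed line marking the threshold of 1. PCDHGB5 and PCDHGC4 move from 0.89 to 1.04 and from 0.89 to 1.11, and PCDHGC5 is the highest at 4.40 and 4.45.

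The other 7 gamma genes, among them PCDHGA2, PCDHGA3, PCDHGA5 and PCDHGB3, were not tested with the filter and are described after their values were seen. Every DZNep library was above every Control library for these 4 and not for PCDHGA4, PCDHGA8 and PCDHGA9. This held for 12.5% of all genes with at least 1 read. PCDHGA2 went from 10 to 64 reads, a depth-adjusted ratio of 5.56 (2.84 to 12.2). Without the filter edgeR called PCDHGA2 (adjusted p = 0.0105), PCDHGA5 (0.0289) and PCDHGB3 (0.0204) higher and not PCDHGA3 (0.0562), which DESeq2 called (0.0374). PCDHGA9 showed the spread of the high genes, with 0 to 17.9 normalized counts in Control and 1.12 to 27.4 with DZNep.

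CpG counts of the promoters were compared with no test. The 250 bases before the start held 3 to 14 CpG, median 6, for the 13 called genes with an entry and 9 to 15, median 11, for the 5 uncalled genes, against a median of 11 over all promoters. Across these 18 genes, which share libraries and filter, CpG count and log2 fold change had Pearson's r = -0.354 and Spearman's rho = -0.281, given as a description. CpG count and the log2 Control mean had r = 0.485 and rho = 0.323 in the same genes. A gene low in Control could enter this set only by being higher with DZNep. These contrasts and correlations therefore cannot tell CpG count from the filter. Over all member promoters with an entry, called or not, the median was 5 CpG in the alpha, 6 in the beta and 5.5 in the gamma cluster. Whether CpG count or Control level goes with the change was not tested.

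Between and around the arrays lie 30 other annotated genes inside the span, of which 3 were tested. TAF7, a general transcription factor subunit between the beta and gamma clusters, had a mean of 2763 ± 487 normalized counts in Control and 3783 ± 289 with DZNep (SD, n = 4 each) and did not pass (log2 fold change 0.43 ± 0.16 SE, edgeR adjusted p = 0.0512). SLC25A2, an ornithine transporter gene next to it, had 0 reads. PCDHGB8P, a gamma pseudogene outside the rule, rose from 2.60 to 27.5 normalized counts (log2 fold change 3.32 ± 0.55 SE, edgeR adjusted p = 0.000952). It had 2, 6, 1 and 1 reads in Control replicates 1 to 4, so it could be tested only through its DZNep values. Its neighbours in the array, PCDHGA11 and PCDHGA12, were respectively not called and called higher. In the wider list of 22 neighbouring genes 20 were tested, with a median log2 fold change of 0.42. PCDH12 was called higher (1.38 ± 0.28 SE) and PCDH1 lower (-1.08 ± 0.29 SE), where 10.6% of all genes tested were higher and 13.5% lower.

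Among 14 CTCF and cohesin genes, which act at these promoters, 1 was called, CTCFL, the germline paralog of CTCF, which rose (log2 fold change 1.89 ± 0.44 SE, edgeR adjusted p = 0.00644). A share of 1 in 14 is not above the 10.6% of all genes tested that were higher. CTCF, the insulator protein itself, went from 3135 ± 827 to 6009 ± 1088 normalized counts without overlap, with a log2 fold change of 0.91 ± 0.21 SE below the threshold (adjusted p = 0.00664), and of the others only RAD21, a cohesin subunit, and MAU2, a cohesin loader, had an edgeR adjusted p under 0.05 (0.76 ± 0.15 SE and -0.54 ± 0.16 SE, both named after their values were seen). Of 26 silencing factors 0 were called in either direction, by edgeR or by DESeq2. With edgeR, 10.6% of all genes tested were higher and 13.5% lower. Still, 9 of the factors had an edgeR adjusted p under 0.05 (8 higher and 1 lower) and 10 an unadjusted p under 0.05. The 8 higher ones lay between 0.45 and 0.94 on the log2 scale (among them SETDB1, the lowest, and EHMT2, TET3 and ATF7IP, the highest), and the lower one was DNMT3A, a de novo DNA methyltransferase, at -0.95 ± 0.13 SE (adjusted p = 0.000358). The genes named here were chosen with their values known. DNMT3B was at -0.07 ± 0.17 SE (adjusted p = 0.776), and SMCHD1, a silencing protein known to act on these clusters, at -0.45 ± 0.37 SE (adjusted p = 0.352; with the replicate block 0.018).

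Other protocadherins moved in both directions. Of 16 nonclustered protocadherin and related genes 15 were tested, with a median log2 fold change of 0.47. Of these, 5 rose and 3 fell (9 calls in all with the replicate block). Over all genes tested, 10.6% were higher and 13.5% lower. PCDH18 (1.62 ± 0.27 SE), PCDH7 (1.48 ± 0.27 SE) and PCDH20 (1.47 ± 0.29 SE) rose the most, and CDHR2 (-1.54 ± 0.34 SE), CDHR1 (-1.41 ± 0.17 SE) and PCDH1 fell. The proteins that partner with or process the protocadherins showed 1 call in 25, against the 13.5% of all genes tested that were lower, NLGN2, a postsynaptic adhesion protein, which fell (-1.14 ± 0.15 SE). Of 15 neuronal genes 13 were tested, with a median log2 fold change of -0.28. DCX (3.26 ± 0.38 SE), MAP2 (2.28 ± 0.41 SE) and TUBB3 (1.35 ± 0.30 SE) rose while RBFOX3 (-3.39 ± 0.49 SE) fell. Of all genes tested, 10.6% were higher and 13.5% lower. At an edgeR adjusted p under 0.05 alone, 4 neuronal genes were higher and 2 lower.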

How the data were processed

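RNAseq was measured in 8 libraries grouped by treatment, 4 Control and 4 DZNep. Before deposit, the authors ran Trimmomatic 0.36 on 150 bp read pairs, aligned to GRCh38 by STAR 2.5.2b, and took the unique exonic reads of each gene by featureCounts (Subread 1.5.2). The authors deposited these counts for 57500 genes, and a signal table of normalized counts (19118 genes), checked to be each count divided by the library's size factor. Annotation release and strandedness are not given in the sources used here. Only unique reads were counted, and reads in exons shared by gamma genes, or by alpha genes, are not assigned to a single gene. The study calls the libraries biological replicates, the labels only replicates, and p-values measure the spread between these libraries.

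Symbols and coordinates came from GENCODE on GRCh38, matched for 56410 identifiers. Tests used R 4.3.3, edgeR 4.0.16 (quasi-likelihood, TMM, filterByExpr, Benjamini-Hochberg) and DESeq2 1.42.0, and a gene was called where adjusted p was under 0.05 and the log2 fold change passed 1 in size. The SE given with a log2 fold change is its size divided by the square root of edgeR's F statistic. The edgeR script was tested on simulated data. Alternatives were another normalization, other filters, adjusted p alone, DESeq2, the replicate block and leaving out each library. Replicate numbers were taken as pairs because same-numbered libraries deviated together (correlation of deviations from group means 0.136, 0.492, 0.429 and 0.673). Some libraries of other numbers did so as well (Control 1 with DZNep 4 0.529, Control 2 with DZNep 3 0.398, Control 3 with DZNep 2 0.343), so replicates 1 and 4 against 2 and 3 is part of this pairing. No pair of libraries agreed within sampling noise. Genes named are, per cluster, the 3 largest and 3 smallest log2 fold changes among called members, the 3 highest average levels, all C-type genes and PCDHB1, and up to 3 called genes per direction of each list, with CTCF, SMCHD1, DNMT3B, TAF7 and SLC25A2. Genes outside this rule were named after their values were seen. Members and lists were chosen with earlier results of these data known.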

Additional observations from a re-analysis of the deposited data

Results flagged for a closer look

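Named genes and cluster sums were checked for a library far from the other three of its group, over 46 groups of 4, in which chance marks about 1 group in 20. PCDHA10 was far higher in Control replicate 2, at 16.1 normalized counts. PCDHAC1 had its single Control read in replicate 3, at 0.896 normalized counts. PCDHB16 was far higher in DZNep replicate 1, at 31.7 normalized counts, and its groups did not overlap with or without that library.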

How the results depend on the processing

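Of the counts of genes that rose, the family total stayed within 1.5 times of 15 under all alternatives except the demand of at least 10 reads in every library, which left 5 members to test and gave 2 higher (0 beta and 2 gamma). The alpha count of 0 became 1 (PCDHA1) without a filter and with DESeq2. Leaving out each library gave 12 to 19 higher genes, 4 to 6 beta and 8 to 13 gamma, with 0 alpha and 0 lower each time. The filter passed 20 to 28 members in these fits, so the genes tested were not the same. Of the 15 members called with all libraries, 12 to 15 stayed called. The 19 without Control replicate 1 were 14 of these and PCDHB8, PCDHB9, PCDHGA2, PCDHGA3 and PCDHGA5. With all libraries 10.6% of all genes tested were higher, and this share was not counted in these fits. PCDHB15 was no longer called without Control replicate 1, 2 or 4 (log2 fold changes 1.19, 0.98 and 1.01) or without DZNep replicate 1, 2 or 3 (1.16, 1.23 and 0.94). PCDHGB2 was no longer called without Control replicate 4 or DZNep replicate 1, 2 or 3, (adjusted p from 0.0578 to 0.0897), nor PCDHGA7 without DZNep replicate 2 or 3. PCDHGA11 turned negative without Control replicate 1 (-0.15), Control replicate 4 (-0.25) or DZNep replicate 2 (-0.05), with a range of -0.25 to 0.57 over these fits, and the cause was not tested. With the replicate block 17 members were higher, and among the members it changed no call besides those of PCDHGB5 and PCDHGC4. Low depth limits all alpha and most beta genes.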
